A study of Mus musculus with 8 samples.

Results

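The genes described here are the nuclear effectors of the Hippo pathway and a set of genes that they are known to control: Yap1 and Wwtr1, the 4 TEAD genes Tead1, Tead2, Tead3 and Tead4, and the target genes Ctgf, Cyr61, Ankrd1 and Amotl2. They were chosen by name from the 24421 genes that every library lists, which gives 10 genes of 24421. Reads were found for 9 of the 10 in at least 1 library and for 8 in every library.

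The 2 states compared were of R1 mouse embryonic stem cells (ESCs), an established pluripotent line. In the Undiff state the cells had received no retinoic acid (RA). In the Day4 state, embryoid bodies (cell aggregates formed in low-adherence dishes) had grown for 4 days without leukaemia inhibitory factor (LIF), and RA, an inducer of differentiation, was then present for 4 days. The study's methods describe Undiff as cells kept with LIF, whereas the sample labels name the tissue of both states as embryoid bodies. The design text gives the RA dose as 2 µM and the sample protocol as 2 mM. Both states come from 1 line with no genetic change. Polyadenylated RNA was sequenced through nanopores (Oxford Nanopore Technologies) with the Direct RNA kit, in which the native strand passes the pore, from an input of 500 ng, and with the cDNA-PCR kit, in which an amplified copy is read, from an input of 50 ng. Each of the 4 combinations of kit and state had 2 replicates, giving 8 libraries. Per the study's methods the replicates of a state were separate biological replicates, and RNA from the same duplicate samples served both kits, so a result seen on both kits is not an independent biological replication.

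In the Hippo pathway a chain of kinases, Stk3 or Stk4 followed by Lats1 or Lats2, phosphorylates Yap1 and Wwtr1 (also called TAZ), and the phosphorylated proteins are held in the cytoplasm or degraded. When the kinases are inactive, both coactivators enter the nucleus and bind the TEAD proteins, which carry the DNA-binding domain that Yap1 and Wwtr1 lack. Ctgf and Cyr61, which encode secreted matricellular proteins, Ankrd1, an ankyrin repeat protein of muscle, and Amotl2, an angiomotin-family protein that binds Yap1 at cell junctions, are widely used readouts of that activity. The control acts largely on the proteins, which read counts do not measure.

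Direct RNA libraries held 283461 to 907489 reads on genes and cDNA libraries 948657 to 2088592. A floor of 3 reads equals 1.44 to 10.6 CPM, where CPM is the count scaled to 1000000 gene reads. The 10 genes together held 2414 of 8709730 reads, between 65 and 619 in a library. Intervals and floors cover counting error only. Between states, DESeq2 called 920 genes higher and 740 lower at Day4 in Direct RNA, and 893 higher and 949 lower in cDNA. With total reads in place of DESeq2 size factors the cDNA split became 1263 higher and 655 lower, as the median log2 fold change of all genes moved to 0.33. A gene was called where the adjusted p was at most 0.05, the log2 fold change at least 1 in size and the mean normalised count at least 5.

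The summed level of 8 ESC markers was between 10745 and 12759 CPM in Direct RNA Undiff and between 20902 and 23567 CPM in cDNA Undiff. At Day4 it was 109 and 518 CPM in Direct RNA replicates 1 and 2, and 82.7 and 918 CPM in the same replicates of cDNA, so that replicate 2 held more of these transcripts on both kits. The summed level of 9 extraembryonic endoderm markers went from at most 14.3 CPM to between 735 and 1108 CPM in Direct RNA, and on cDNA from at most 8.43 to between 300.4 and 333 CPM, with Gata6, Ttr and Afp at 0 in the Undiff libraries of both kits. That of 8 mesenchyme and fibroblast markers went from at most 14.3 CPM to between 1283 and 2967 CPM in Direct RNA, and from at most 9.49 to between 233 and 267 CPM in cDNA, with Col1a2, Col3a1, Postn, Lum and Dcn at 0 in Undiff on both kits. Col3a1 alone gave 1852 and 847 CPM of the Direct RNA Day4 sum. Thy1 had few reads and was lower at Day4, with 3 and 6 against 0 and 3 reads in Direct RNA (8.61 and 6.61 against 0 and 4.07 CPM). In cDNA it had 7 and 8 against 0 and 2 reads. Thy1 was not called in Direct RNA, where its mean normalised count of 2.45 was under the minimum for a call. Smooth muscle markers (4) lay between 37.3 and 120.1 CPM in Undiff and between 134.2 and 173 CPM at Day4 in Direct RNA, and the 5 cardiac markers between 17.6 and 23.0 and between 38.0 and 56.4 CPM. In cDNA the smooth muscle sum was 11.6 to 44.5 CPM in Undiff and 98.7 to 117 CPM at Day4, and the cardiac sum 26.8 to 55.9 and 35.6 to 106 CPM. Acta2 carried the smooth muscle sum at Day4, with 138 and 115 CPM in Direct RNA and 105 and 90.5 CPM in cDNA, while Tagln was not called on either kit (-1.19 and -2.02). Trophectoderm markers (6) summed to between 86.1 and 183 CPM in Undiff and to between 49.4 and 50.2 CPM at Day4 in Direct RNA, and to between 70.6 and 186 and between 19.0 and 75.6 CPM in cDNA. Tfap2c carried the lower Day4 sum (57.4 and 169 CPM in Direct RNA Undiff against 3.53 and 9.49 CPM, and 48.5 and 166 against 0.76 and 16.4 CPM in cDNA). It was called lower in Direct RNA but not in cDNA, and no other gene of the list was called on either kit. The 4 endothelial markers gave 70.5 to 121 CPM and 81.1 to 134.2 CPM in Direct RNA and 32.7 to 35.4 CPM and 34.1 to 49.1 CPM in cDNA, in Undiff and Day4 in that order. Within that sum Pecam1 was at 115 and 61.7 CPM in Direct RNA Undiff and 21.2 and 47.5 CPM at Day4, while Kdr was called higher there (4.40, adjusted p = 0.00136, DESeq2) and Cdh5 had no read in Undiff on either kit. The 6 neural markers gave 161 to 178 CPM in Undiff and 111 to 152 CPM at Day4 in Direct RNA, and 88.5 to 192 and 620 to 636 CPM in cDNA. Ncam1 alone gave 574 and 595 CPM of the cDNA Day4 sum, and Tubb3 was called lower on both kits (-3.37 and -2.42). The part that these shifts in cell type play in the levels below was not tested, and in bulk RNA a change in the number of cells of a type cannot be told apart from a change in RNA per cell.

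The DNA word that TEAD proteins are known to recognise, GGAATG, read as CATTCC on the other strand, was searched in RefSeq promoters (GRCm38.p6, 250 bases before to 50 after the annotated start). Promoters were available for 7 of the 10 genes, and Tead1, Tead4 and Ctgf could not be searched. Of the 7 genes searched 6, all but Tead2, held the word at least once in an annotated promoter. Of all 32851 promoters of this length 14.7% held it, and of all 27025 genes 16.6% did in at least 1 promoter. The 250 bases before the start of Cyr61 and of Wwtr1 are printed 5′ to 3′ on the gene's strand, with the word in capitals, because Cyr61 is the target gene whose pooled Direct RNA level differed least between states and Wwtr1 the coactivator that was called. Both genes lie on the minus strand, Cyr61 at chr3:145649986-145650235 and Wwtr1 at chr3:57575911-57576160.
Cyr61: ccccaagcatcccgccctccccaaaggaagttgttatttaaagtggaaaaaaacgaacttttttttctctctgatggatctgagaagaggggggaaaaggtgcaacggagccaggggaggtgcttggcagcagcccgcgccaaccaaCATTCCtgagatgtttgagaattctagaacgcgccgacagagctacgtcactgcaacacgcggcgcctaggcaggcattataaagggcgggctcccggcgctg
Wwtr1: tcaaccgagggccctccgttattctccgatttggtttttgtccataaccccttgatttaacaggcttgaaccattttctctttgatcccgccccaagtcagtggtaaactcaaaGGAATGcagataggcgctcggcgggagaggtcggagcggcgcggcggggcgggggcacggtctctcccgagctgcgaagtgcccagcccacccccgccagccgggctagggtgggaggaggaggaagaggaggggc
The word begins 103 bases before the start of Cyr61 and 136 bases before that of Wwtr1. A match is a string of letters, and binding was not measured.

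Of the coactivators, Wwtr1 rose at Day4 in Direct RNA, and Yap1 was not called on either kit. Wwtr1 (minus strand, chr3:57455649-57575910, GRCm38) had 3 and 17 reads in the Undiff replicates 1 and 2 of Direct RNA and 27 and 56 reads at Day4. In CPM these are 8.61 and 18.7 against 95.3 and 75.9, so both Day4 libraries lay far above the higher Undiff library. The cDNA libraries held 6 and 7 reads (6.32 and 3.35 CPM) in Undiff and 26 and 44 reads (19.7 and 21.2 CPM) at Day4, again without overlap. Over the pooled reads of a state the level was 5.10-fold higher at Day4 in Direct RNA (95% counting interval 3.10 to 8.78) and 4.82-fold higher in cDNA (2.64 to 9.49). The shrunken log2 fold change was 2.28 ± 0.68 (SE) in Direct RNA, with an adjusted p of 0.0112 (DESeq2), and 1.67 ± 0.82 in cDNA, with an adjusted p of 0.213. The quasi-likelihood test of edgeR gave adjusted p-values of 5.9e-04 and 0.0291, the lowest over the fits tried, whose highest were 0.318 and 0.88. The Direct RNA call was lost when any 1 of the 4 libraries was left out (adjusted p between 0.171 and 0.318), with log2 fold changes of 1.78 to 2.77.

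Yap1 (minus strand, chr9:7931999-8004596) gave 37 and 133 reads in Direct RNA Undiff and 59 and 127 at Day4, or 106 and 147 CPM against 208 and 172 CPM. The Day4 values lay above the Undiff values, but the log2 fold change of 0.44 ± 0.41 did not pass the test (adjusted p = 0.688, DESeq2). In cDNA, 8 and 50 reads in Undiff and 25 and 51 at Day4 (8.43 and 23.9 against 19.0 and 24.6 CPM) overlapped between states, at a log2 fold change of 0.08 ± 0.70 (adjusted p = 0.965). The transcript Gm20416 overlaps an exon of Yap1 on the opposite strand. The study's methods name Direct RNA as counted by strand. If cDNA was counted without strand, reads of that transcript cannot be told apart from those of Yap1 there.

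Seen as a pair, the coactivators differed in balance between the states. Yap1 took 92.5% and 88.7% of the reads on Yap1 and Wwtr1 in the Undiff replicates of Direct RNA (95% Wilson intervals 80.1 to 97.4 and 82.6 to 92.8) and 68.6% and 69.4% at Day4 (58.2 to 77.4 and 62.4 to 75.6). In cDNA the shares were 57.1% of 14 reads and 87.7% of 57 reads in Undiff, and 49.0% of 51 and 53.7% of 95 reads at Day4. The intervals of the 2 states did not meet in Direct RNA, while in cDNA the interval of Undiff replicate 1, 32.6 to 78.6, spans both Day4 values. Yap1 and Wwtr1 share 70.2% of bases over their aligned coding sequences.

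Among the TEAD genes, Tead2 rose in Direct RNA, where it held most TEAD reads in both states, Tead1 was not called, and Tead3 and Tead4 were near the floor in at least 1 state. Tead2, which is known from early embryos and neural precursors, had 38 and 129 reads in Direct RNA Undiff and 134 and 338 at Day4. These are 109 and 142 CPM against 473 and 458 CPM, with the Day4 replicates closer together than the Undiff ones. The cDNA libraries gave 8 and 24 reads in Undiff and 29 and 88 at Day4 (8.43 and 11.5 against 22.0 and 42.4 CPM), which did not overlap. Pooled over replicates, Tead2 stood 3.48-fold higher at Day4 in Direct RNA (2.91 to 4.17) and 3.27-fold higher in cDNA (2.20 to 5.00). The log2 fold changes were 1.73 ± 0.35 (adjusted p = 2.6e-05, DESeq2) and 1.27 ± 0.68 (adjusted p = 0.281). Without Undiff replicate 1 the Direct RNA call was lost (log2 fold change 1.43, adjusted p = 0.0817), and it held when any other library was left out. Tead2 (plus strand, chr7:45215753-45233644) shares an exon region with Cd37 on the opposite strand.

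Tead1 (plus strand, chr7:112679318-112906807) had 23 and 61 reads in Direct RNA Undiff, 66.0 and 67.2 CPM, and 27 and 21 reads at Day4, 95.3 and 28.5 CPM. The Day4 replicates thus lay on either side of the Undiff pair, and the log2 fold change was -0.28 ± 0.63 (adjusted p = 0.93, DESeq2). In cDNA the 18 and 43 reads of Undiff (19.0 and 20.6 CPM) lay below the 34 and 78 reads of Day4 (25.8 and 37.5 CPM), at 0.33 ± 0.61 (adjusted p = 0.921).

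Tead3 (minus strand, chr17:28331671-28350817) had 2 and 3 reads in Direct RNA Undiff and 13 and 21 at Day4, that is 5.74 and 3.31 CPM against 45.9 and 28.5 CPM. Its log2 fold change of 2.61 ± 0.96 missed the threshold in DESeq2 (adjusted p = 0.0582). It passed in edgeR (adjusted p = 0.00132) and in DESeq2 with total reads as size factors (0.0438), with at least 10 summed reads (0.0321) or with Cook's cutoff and independent filtering (0.0413), in a range of 0.00132 to 0.763 over all fits tried. In cDNA its 1 and 4 reads in Undiff and 7 and 5 at Day4 left a mean normalised count of 3.91, under the minimum for a call. Tead4, the TEAD known for its role in the trophectoderm of the early embryo, showed the opposite order. Tead4 (minus strand, chr6:128224288-128300823) gave 7 and 5 reads in Direct RNA Undiff and 0 and 2 at Day4, with a mean normalised count of 3.58, too low for a call, and 6 and 10 reads against 0 and 3 reads in cDNA (log2 fold change -2.49 ± 1.27, adjusted p = 0.24, DESeq2). The ratio of Undiff to Day4 was 4.88 in Direct RNA (1.09 to 44.9) and 5.96 in cDNA (1.71 to 31.9).

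Within the family, Tead2 made up 54.3% and 65.2% of all TEAD reads in the Undiff replicates of Direct RNA and 77.0% and 88.5% at Day4. In cDNA the same share was 24.2% and 29.6% in Undiff and 41.4% and 50.6% at Day4. Tead1 moved the other way, at 32.9% and 30.8% in Undiff against 15.5% and 5.50% at Day4 in Direct RNA, and 54.5% and 53.1% against 48.6% and 44.8% in cDNA. The kits therefore gave a different leading TEAD in Undiff, Tead2 in Direct RNA and Tead1 in cDNA. Per length of transcript Tead2 led in every library, with 68.4% to 91.8% in Direct RNA and 36.8% to 71.6% in cDNA. The summed TEAD level was 201 and 218 CPM in Direct RNA Undiff and 614 and 518 CPM at Day4, and 34.8 and 38.8 against 53.1 and 83.8 CPM in cDNA. Coding sequences of the 4 genes share between 72.8% and 76.4% of aligned bases.

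**Figure D1:**
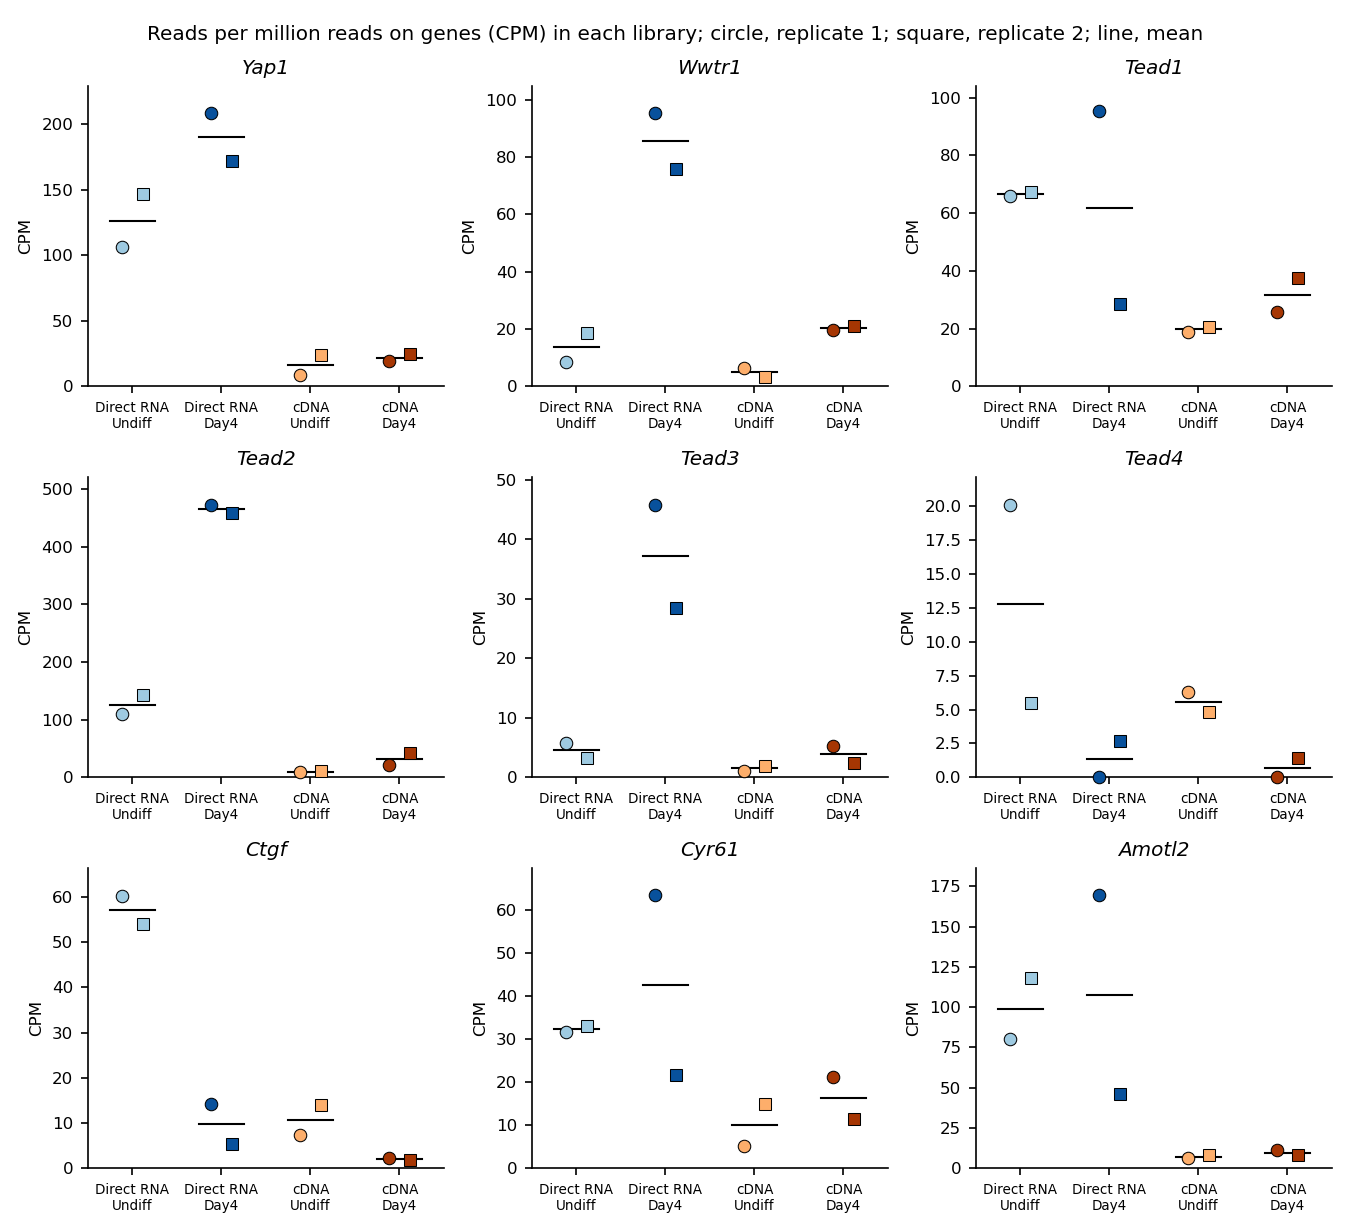
CPM (counts scaled to 1000000 gene reads, on linear axes that start at 0 and differ between panels) of 9 genes in the 8 libraries, grouped by kit and state, with circles for replicate 1, squares for replicate 2 and a line for the mean of both. Tead2 at Day4 in Direct RNA reached 473 and 458 CPM, above 109 and 142 CPM in Undiff, Ctgf lay lower at Day4 on both kits, and the Direct RNA Day4 replicates of Tead1, Cyr61 and Amotl2 stand on either side of their Undiff values. Ankrd1, with 0 reads everywhere, is left out.

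The 4 target genes gave different results. Ctgf fell at Day4 in Direct RNA, Cyr61 and Amotl2 were not called on either kit, and Ankrd1 had no read. For Ctgf (plus strand, chr10:24595442-24598683), Direct RNA gave 21 and 49 reads in Undiff and 4 and 4 at Day4, or 60.3 and 54.0 CPM against 14.1 and 5.42 CPM. With cDNA there were 7 and 29 reads in Undiff and 3 and 4 at Day4 (7.38 and 13.9 against 2.28 and 1.93 CPM), so the states did not overlap on either kit. Pooled, the Undiff level was 7.11 times the Day4 level in Direct RNA (3.42 to 17.1) and 5.75 times in cDNA (2.52 to 15.3). DESeq2 gave log2 fold changes of -2.57 ± 0.80 (adjusted p = 0.0168) and -2.36 ± 1.00 (adjusted p = 0.119), and edgeR adjusted p-values of 8.6e-04 and 0.00789, the lowest of the fits tried, with highest values of 0.546 and 0.812. The call in Direct RNA was lost without any 1 of the 4 libraries (adjusted p between 0.051 and 0.546), at log2 fold changes of -2.88 to -1.82. The transcript Gm15270 overlaps Ctgf on the opposite strand.

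Cyr61, a close relative of Ctgf in the CCN family whose promoter is printed above, lies on the minus strand at chr3:145646976-145649981. It had 11 and 30 reads in Direct RNA Undiff and 18 and 16 at Day4, which are 31.6 and 33.1 CPM against 63.5 and 21.7 CPM. In cDNA it had 5 and 31 reads in Undiff and 28 and 24 at Day4 (5.27 and 14.8 against 21.2 and 11.6 CPM). The states overlapped on both kits, and the log2 fold changes of 0.20 ± 0.74 and 0.36 ± 0.81 did not pass (adjusted p = 0.93 and 0.921, DESeq2). The counting intervals of the Day4 to Undiff ratio, 0.628 to 1.65 in Direct RNA and 0.829 to 2.03 in cDNA, leave out neither a small rise nor a small fall.

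Between Ctgf and Cyr61, Ctgf took 65.6% and 62.0% of the reads on both in Direct RNA Undiff and 18.2% of 22 and 4 of 20 reads at Day4. The Wilson intervals of these shares were 48.3 to 79.6 and 51.0 to 71.9 in Undiff, and 7.31 to 38.5 and 8.07 to 41.6 at Day4. In cDNA the share was 58.3% and 48.3% in Undiff and 9.68% and 14.3% at Day4. The balance between these genes, whose coding sequences share 65.7% of aligned bases, thus lay with Ctgf in the Direct RNA Undiff libraries and with Cyr61 in every Day4 library.

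Amotl2 (plus strand, chr9:102716672-102733418) gave 28 and 107 reads in Direct RNA Undiff and 48 and 34 at Day4, or 80.4 and 118 against 169 and 46.1 CPM. The cDNA libraries held 6 and 17 reads in Undiff and 15 and 17 at Day4 (6.32 and 8.14 against 11.4 and 8.18 CPM). The log2 fold changes were -0.06 ± 0.57 (adjusted p = 0.976) and 0.11 ± 0.88 (adjusted p = 0.962, DESeq2), and the sign in Direct RNA turned with total reads as size factors, to 0.053. Ankrd1 (minus strand, chr19:36111961-36120099) had 0 reads in all 8 libraries, which allows up to 0.344 CPM over their pooled reads and between 1.44 and 10.6 CPM in a single library. A lower level was not detectable at this depth.

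Taken by kit, DESeq2 called 2 of the 10 genes higher in Direct RNA, Wwtr1 and Tead2, where 9.54% of the 9646 genes that reach the count minimum were called higher, and 1 lower, Ctgf, where 7.67% were. In cDNA 0 of the 10 were called, against 8.69% higher and 9.24% lower of 10271 genes, although Wwtr1 and Ctgf reached an unadjusted p of at most 0.05 and both were called by edgeR. Of all genes with a read in cDNA 3489 reached that p, and edgeR called 2812 of those that its filter on low counts kept. Neither count is out of the 10271 genes, so they give no background share for the 2 genes. On each kit 8 of the 10 genes reached the count minimum, and their median log2 fold change was 0.32 in Direct RNA and 0.22 in cDNA, beside medians of 0.03 and 0.00 for all genes at the minimum.

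**Figure D2:**
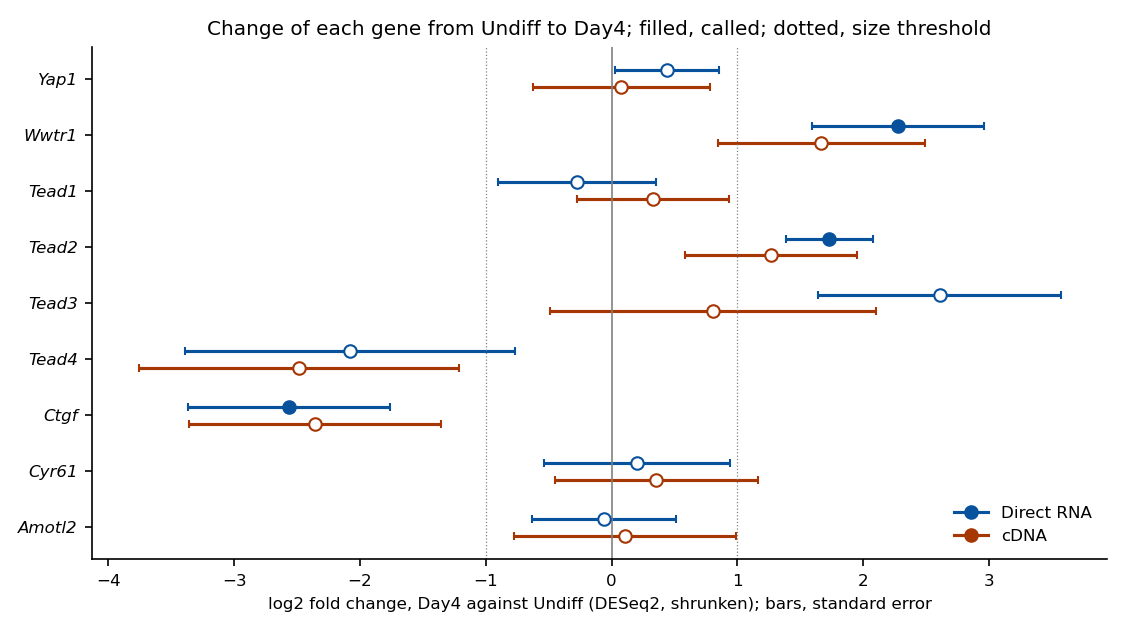
Shrunken log2 fold change of Day4 against Undiff with its standard error for 9 genes, in Direct RNA (blue) and cDNA (brown), with filled points for called genes and dotted lines at the size threshold of 1. The 3 filled points are Wwtr1 (2.28), Tead2 (1.73) and Ctgf (-2.57) in Direct RNA, and the cDNA values of the same genes, 1.67, 1.27 and -2.36, lie on the same side of 0.

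Whether the change with state differed between kits was tested by the interaction in one fit over all libraries. DESeq2 called 0 of the 9 genes with reads, at an adjusted p of 0.9999 for each and with 0 at an unadjusted p of at most 0.05, and edgeR also called 0. The background was 0.0116%, 2 of 17267 genes. The difference between kits, cDNA minus Direct RNA, in the unshrunken log2 fold change was -0.44 for Tead2 (95% interval -1.72 to 0.84), -0.60 for Wwtr1 (-2.70 to 1.49) and 0.10 for Ctgf (-2.46 to 2.66). These intervals leave room for differences of more than 2-fold in either direction for Wwtr1 and Ctgf.

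The level itself differed between kits for most of the 10 genes. With state as a covariate, 6 were called lower in cDNA, where 26.6% of 10426 genes were, and 0 higher, where 24.7% were. Tead2 was lower by a log2 fold change of -3.02 ± 0.27 (adjusted p = 1.4e-27, DESeq2), Amotl2 by -2.75 ± 0.44 (4.7e-09), Yap1 by -2.25 ± 0.30 (1.8e-12), Tead3 by -1.75 ± 0.65 (0.0229), Ctgf by -1.44 ± 0.47 (0.0078) and Wwtr1 by -1.20 ± 0.40 (0.00857). Yap1, Tead2 and Amotl2 kept the call without any 1 of the 8 libraries. The calls of the others were lost in 6 (Wwtr1), 4 (Tead3) and 3 (Ctgf) of the 8 fits that leave out 1 library: Wwtr1 without Direct RNA Undiff replicate 2 and without either replicate of Direct RNA Day4, of cDNA Day4, or replicate 2 of cDNA Undiff, Tead3 without any 1 Day4 library, and Ctgf without either Direct RNA Undiff replicate or cDNA Undiff replicate 1. Tead3 was also lost (adjusted p = 0.0578, in a range of 4.1e-04 to 0.209 over the fits tried) under a block with the Day4 replicate numbers crossed between kits. Not called were Tead1 (-0.55), Cyr61 (-0.69) and Tead4 (-0.31). With total reads as size factors the median of all genes moved to -0.77, the split of calls from 2572 higher and 2772 lower to 1132 and 4394, and Tead1 and Cyr61 were called lower as well. The longest annotated transcript measures 9964 bases for Tead1, 3076 for Tead4 and 2019 for Cyr61, and between 2490 and 5282 bases for the 6 called genes.

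**Figure D3:**
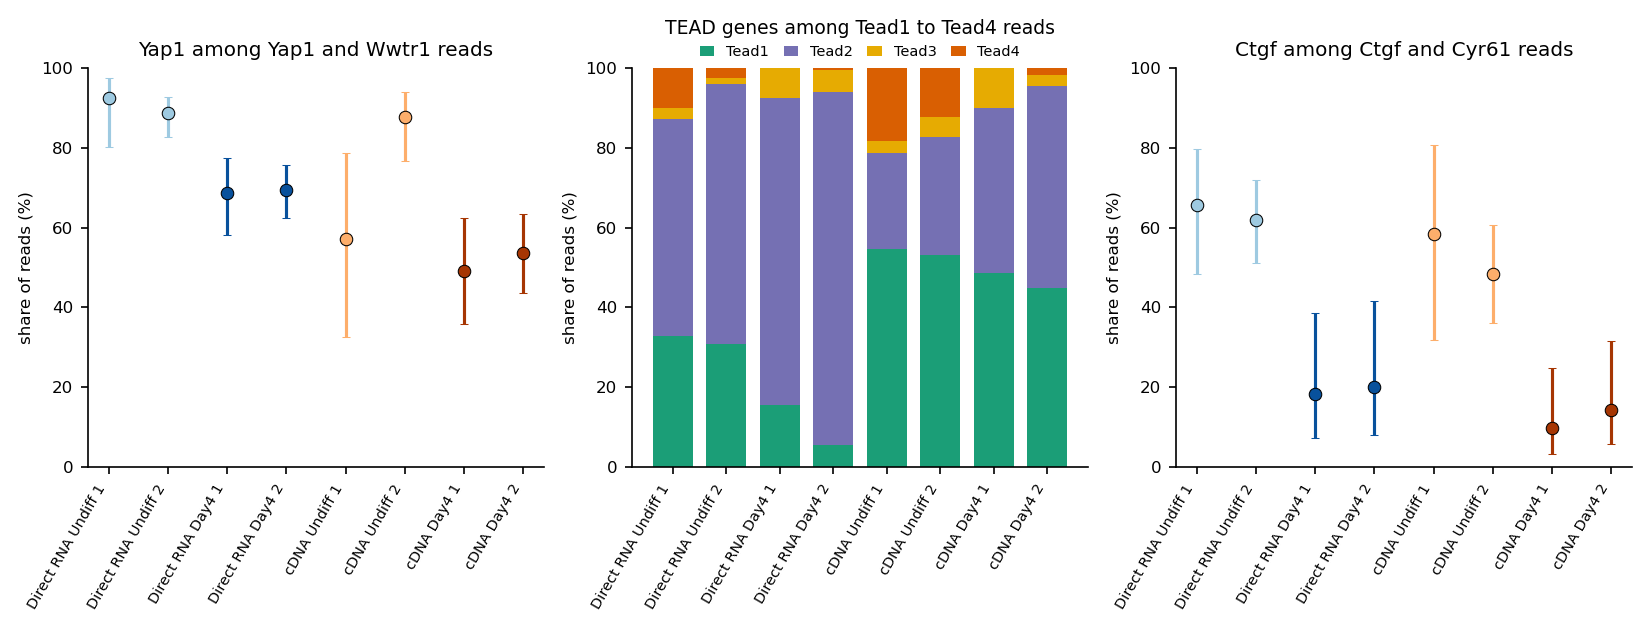
Shares of reads in the 8 libraries, in percent: Yap1 among Yap1 and Wwtr1 (left), each TEAD gene among Tead1 to Tead4 as stacked bars (middle) and Ctgf among Ctgf and Cyr61 (right), with 95% Wilson intervals on the points. The Yap1 share is 92.5% and 88.7% in Direct RNA Undiff and 68.6% and 69.4% at Day4, Tead2 takes a larger part of the TEAD reads at Day4 than in Undiff on each kit, and the Ctgf share is lower in every Day4 library than in any Undiff library.

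Levels of different genes were compared per kb of the longest annotated transcript. In Direct RNA Undiff the order was Tead2 (37.0 CPM per kb), Yap1 (23.9), Ctgf (22.9), Amotl2 (22.4), Cyr61 (16.0), Tead1 (6.69), Tead4 (4.16), Wwtr1 (2.91), Tead3 (1.31) and Ankrd1 (0). The replicate ranges of Yap1, Ctgf and Amotl2 met, as did those of Tead4 and Wwtr1, so those neighbours were not ordered beyond their spread. At Day4 the same kit gave Tead2 at 137 CPM per kb, then Yap1 at 36.0, Amotl2 at 24.3, Cyr61 at 21.1 and Wwtr1 at 18.2, of which Tead2 stood clear of Yap1 and the next 4 each met their neighbour in range. Below Wwtr1 and clear of it lay Tead3 (10.8), whose range met those of Amotl2, Cyr61 and Tead1, then Tead1 (6.21) and Ctgf (3.92), which also met, and Tead4 (0.441).

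In cDNA Undiff the first 4 places, Cyr61 (4.98 CPM per kb), Ctgf (4.27), Yap1 (3.06) and Tead2 (2.93), each met the next in range. Tead1 (1.99), Tead4 (1.81), Amotl2 (1.63), Wwtr1 (1.03) and Tead3 (0.431) followed. Of these, Tead1 met Tead4 in range and Tead4 met Amotl2, and the range of Yap1 (1.60 to 4.53) met those of all 3. At Day4 Tead2 (9.48) and Cyr61 (8.12) led with ranges that met, ahead of Wwtr1 (4.35), Yap1 (4.12) and Tead1 (3.18), whose ranges also met from one to the next. Amotl2 (2.21), Tead3 (1.12), Ctgf (0.844) and Tead4 (0.235) came last before Ankrd1, and the ranges of Tead3 and Ctgf met. With the longest coding transcript as the length, 8 of the 10 ranks in cDNA Day4 stayed, as did all 10 in each other group. The longest transcript of Yap1 has 5282 bases in 2 exons, and its longest coding transcript has 4171 bases.

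The kinase cascade upstream of Yap1 was measured through 12 genes. Nf2, which encodes Merlin, a membrane protein that activates the cascade, fell on both kits. It had 55 and 164 reads in Direct RNA Undiff and 9 and 53 at Day4, and 33 and 193 against 25 and 38 in cDNA. The Undiff level was 2.87 times the Day4 level in Direct RNA (2.16 to 3.87) and 4.01 times in cDNA (3.02 to 5.39), with log2 fold changes of -1.69 ± 0.50 (adjusted p = 0.0104) and -2.01 ± 0.58 (adjusted p = 0.0081, DESeq2). On each kit the call held in 1 of the 4 fits that leave out a library: it was lost except without Day4 replicate 2 in Direct RNA and except without Undiff replicate 1 in cDNA. Stk4 was called lower in cDNA only (-1.70 ± 0.61, adjusted p = 0.0475, against -0.50 ± 0.62 in Direct RNA), a call lost without any 1 of its 4 libraries, and the interaction for Stk4 was not called (adjusted p = 0.9999).

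The other 10 cascade genes were called by DESeq2 on neither kit. Lats2, the kinase that acts directly on Yap1 and is also a known target gene, had 0 and 3 reads in Direct RNA Undiff and 11 and 13 at Day4, and 0 and 2 against 10 and 22 in cDNA. The log2 fold changes of Lats2 were 2.90 ± 1.13 (adjusted p = 0.0762) and 2.87 ± 1.24 (adjusted p = 0.132, DESeq2). Lats1 gave 1.92 and 0.59, Stk3 1.30 and 1.16, the scaffold Sav1 1.08 and 0.24, and the Lats cofactors Mob1a and Mob1b 1.28 and 0.53, and 0.43 and 1.22, in Direct RNA and cDNA in that order. The kinases that can act beside Stk3 and Stk4, namely Taok1 (0.25 and 0.26), Taok2 (0.55 and 0.84), Taok3 (0.97 and -0.00) and Map4k4 (0.26 and 0.16), did not pass either. Of the 12 genes, DESeq2 called 0 higher on either kit. The share of all genes at the count minimum that it called higher was 9.54% for Direct RNA and 8.69% for cDNA. At an unadjusted p of at most 0.05, 3 (Lats1, Lats2, Mob1a) were higher in Direct RNA and 2 (Lats2, Stk3) in cDNA. Of all genes with a read, 3231 and 3489 reached that p in either direction, and their share was not computed. In edgeR 4 of the 12 were higher on Direct RNA (Stk3, Sav1, Lats1, Mob1a) and 1, Lats2, on cDNA. Over all genes that its filter kept, edgeR made 1736 higher calls on Direct RNA and 1501 on cDNA, and the share was not computed. With DESeq2 1 was called lower in Direct RNA and 2 in cDNA, where 7.67% and 9.24% of all genes at the minimum were called lower.

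Upstream and junctional regulators (20 genes) gave 1 gene called higher and 2 lower in Direct RNA, and 2 higher and 1 lower in cDNA, with no gene called by DESeq2 on both kits, whereas edgeR, with 2991 calls over all genes in Direct RNA and 2812 in cDNA, called Limd1, Mpp5 and Wwc1 on both. Over all genes 9.54% were called higher and 7.67% lower in Direct RNA, and 8.69% and 9.24% in cDNA. The genes named here were chosen after their values were seen. Dchs1, a protocadherin that pairs with Fat4, had 0 and 0 reads in Direct RNA Undiff and 26 and 38 at Day4, at least 26.2-fold higher (floor of 3 reads over the group), and 0 and 1 against 6 and 16 reads in cDNA. Ajuba, a LIM protein known to restrain Lats kinases, was called lower in Direct RNA (-1.23, beside -1.26 in cDNA). In cDNA Amotl1, a relative of Amotl2, and Limd1, a relative of Ajuba, were called higher (2.73 and 2.52, beside 0.942 and 2.1004 in Direct RNA) and Wwc1, known as Kibra, lower (-3.07 beside -1.82). Dchs1 kept its call without any 1 library, Amotl1 lost it without cDNA Day4 replicate 2, and Ajuba, Limd1 and Wwc1 lost it without any 1 of their 4 libraries. With replicate number as a block in the fit, the call of Dchs1 was lost as well (adjusted p = 0.839, DESeq2).

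Of the 15 cofactors and antagonists, Jun rose on both kits. Jun, a subunit of AP-1 that is known to act with TEAD proteins at enhancers, had 1 and 7 reads in Direct RNA Undiff and 67 and 86 at Day4, and 1 and 3 against 31 and 47 in cDNA. This is 23.5-fold higher in Direct RNA (11.6 to 55.5) and 17.4-fold higher in cDNA (6.55 to 65.6), at log2 fold changes of 4.43 ± 0.69 (adjusted p = 1.4e-08) and 3.43 ± 0.95 (adjusted p = 0.00474, DESeq2). The Direct RNA call held without any 1 library, and the cDNA call held only without Undiff replicate 1, not without Undiff replicate 2 or either Day4 replicate. The other 3 genes called by DESeq2, named after their values were seen, passed it on 1 kit: Csnk1d (1.15) higher and the 14-3-3 gene Ywhag (-1.26) lower in Direct RNA, and Vgll4 (3.18), whose protein competes with Yap1 for TEAD, higher in cDNA. In edgeR Csnk1d and Ywhag passed on both kits, and the DESeq2 values on the kit without a call were close, 1.19 for Csnk1d and -1.11 for Ywhag. Csnk1d lost the call without any 1 of its libraries, Ywhag without Undiff replicate 2 or Day4 replicate 2, and Vgll4 without Undiff replicate 1 or either Day4 replicate. Vgll1 and Vgll2 had 0 reads in every library. The list thus had 2 genes called higher and 1 lower in Direct RNA and 2 higher in cDNA, where 9.54% and 7.67% of all genes were called higher and lower in Direct RNA and 8.69% higher in cDNA.

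A further 24 genes known as Yap targets in other cells were measured beside the 4 target genes above. In Direct RNA 7 of the 24 were called higher and 1 lower, and in cDNA 7 were called higher and 2 lower, beside 9.54% and 7.67% of all genes in Direct RNA and 8.69% and 9.24% in cDNA. The count minimum was reached by 18 of the 24 genes in Direct RNA and by 16 in cDNA, several of them through their Day4 reads alone. DESeq2 called 7 of them in the same direction on both kits, Tgfb2, Ccdc80, Rbms3, Axl, Tgfb1i1 and Igfbp3 higher and Dock5 lower. Many of them are also expressed by mesenchymal cells, whose summed markers were higher at Day4, and the part this plays was not tested. With edgeR, Rbms3 was left out of the Direct RNA test by the filter on low counts, Gadd45b was called lower on both kits, and Asap1 and Lats2 were called higher in cDNA. The genes that DESeq2 called on 1 kit, named, like these, after their values were seen, were Arhgef17 in Direct RNA (2.44), and Areg (4.40) and the cell division gene Birc5 (-1.26) in cDNA. Arhgef17 and Areg lost the call without any 1 of their libraries and Birc5 without Undiff replicate 1 or either Day4 replicate.

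Tgfb2, a secreted growth factor, had 1 and 0 reads in Direct RNA Undiff and 60 and 93 at Day4, and 2 and 0 against 218 and 340 in cDNA, a ratio of 188 (33.3 to 7482) and of 249.6 (68.8 to 2066). Ccdc80, a matrix protein, had 0 and 0 reads in Direct RNA Undiff and 8 and 35 at Day4, at least 17.6-fold higher, and 1 and 1 against 105 and 275 reads in cDNA. Rbms3, an RNA-binding protein, was at 0 in the Undiff libraries of both kits and at 13 and 5 reads in Direct RNA Day4 and 58 and 161 in cDNA Day4, at least 7.38-fold and at least 65.3-fold higher. None of these 3 genes had more than 2 reads in an Undiff library. Axl, a receptor tyrosine kinase, had 3 and 2 reads against 53 and 108 in Direct RNA and 1 and 0 against 32 and 88 in cDNA. Tgfb1i1, a focal adhesion protein, had 0 and 3 reads against 15 and 41 in Direct RNA and 1 and 9 against 63 and 94 in cDNA. Dock5, an activator of the GTPase Rac, had 12 and 37 reads in Direct RNA Undiff and 0 and 0 at Day4, at least 13.3-fold lower, and 13 and 44 against 1 and 5 in cDNA.

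The adjusted p-values of these 6 genes were between 4.1e-09 (Axl) and 0.0157 (Rbms3) in Direct RNA, with 7.0e-09 for Tgfb2, and between 3.0e-13 (Tgfb2) and 0.00483 (Dock5) in cDNA (DESeq2). Without any 1 library, the calls of Tgfb2 and Axl in Direct RNA and of Ccdc80 and Rbms3 in cDNA held. With replicate number as a block in the fit, the cDNA call of Rbms3 was lost (adjusted p = 0.796, DESeq2). The calls of Rbms3, Tgfb1i1 and Igfbp3 in Direct RNA and of Igfbp3 in cDNA were lost without any 1 of the 4 libraries, those of Ccdc80 and Dock5 in Direct RNA and of Axl in cDNA without replicate 2 of either state, those of Tgfb2 and Tgfb1i1 in cDNA without either Day4 replicate, and that of Dock5 in cDNA without Undiff replicate 2 or either Day4 replicate.

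**Figure D4:**
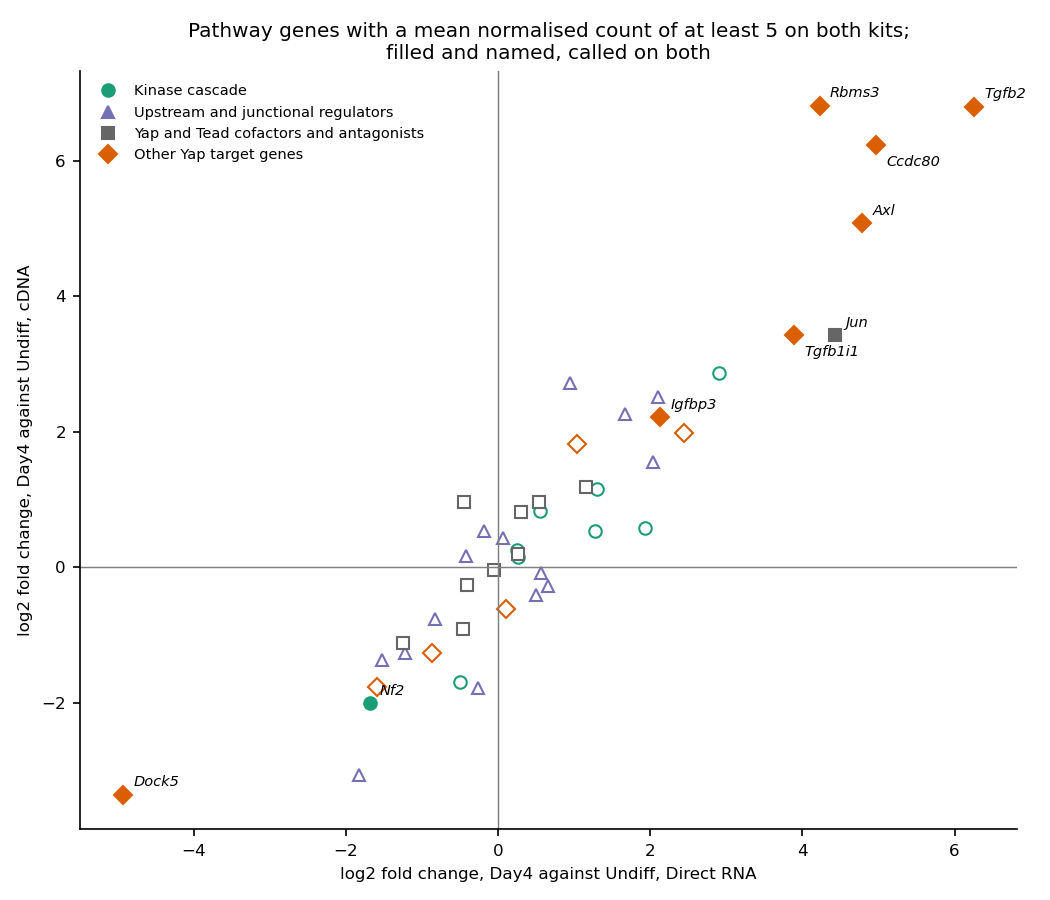
Log2 fold change of Day4 against Undiff in Direct RNA (x axis) and in cDNA (y axis) for the pathway genes with a mean normalised count of at least 5 on both kits, with 1 marker shape and colour for each list, where filled and named points were called on both kits. The 7 Yap target genes called on both kits, Jun and Nf2 are filled, with Tgfb2 at 6.26 and 6.80 and Dock5 at -4.93 and -3.36 as the outermost points.

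Genes whose levels ran most like those of 3 members were listed by Pearson correlation of log2(CPM + 1) over the 8 libraries, among the 6669 genes that averaged 20 or more reads. For Yap1 these were Fkbp9 (0.998), Col18a1 (0.993) and Tmbim6 (0.991), for Tead2 Rab2a (0.996), Derl1 (0.996) and Gtf3c5 (0.995), and for Cyr61 Srf (0.963), Xab2 (0.954) and Cxxc1 (0.947). The points share kit and state, and the kits differ in level for Yap1 and Tead2, so these coefficients describe the 8 libraries only.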

How the data were processed

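Gene counts of 8 libraries were deposited by the authors as raw reads per gene (htseq-count after minimap2 alignment to mm10), with Direct RNA counted by strand. The 5 counter rows that name no gene held between 38.1% and 61.7% of each library's reads and were left out. DESeq2 1.42.0 (R 4.3.3) was fitted per kit with shrinkage and without Cook's or independent filtering, after the study's methods, and over all libraries for the interaction and for kit. P-values were adjusted over all genes (Benjamini-Hochberg). The alternatives were edgeR 4.0.16 (TMM, filterByExpr), other scalings and filters, a replicate block and leaving out each library. Counts of edgeR calls cover the genes that its filter on low counts kept, and no share was computed for them. With 2 replicates a group, precision is limited.

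The members and gene lists were chosen with earlier results of these data known. The text names every kinase cascade gene and, from each other list, the up to 6 genes with the largest mean change among those called in the same direction on both kits. Other names (such as Igfbp3) were added after values were seen, and 1 gene counted in a list is not reported here by name. Lengths and coordinates are from GENCODE vM21 (GRCm38), which matched 24063 of 24421 genes by symbol or synonym, and promoters from RefSeq. Ctgf and Cyr61 were matched through synonyms, as Ccn2 and Ccn1.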

Additional observations from a re-analysis of the deposited data

How the results depend on the processing

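Over all genes, edgeR called 2991 genes between states in Direct RNA and 2812 in cDNA, and leaving out 1 library gave 393 to 797 and 709 to 1020. Of the 10 genes, edgeR called 2 in cDNA, and leaving out 1 library left 0 to 1 called in Direct RNA. The interaction gave 1 call over all genes with TMM factors, 1 with total reads and 0 to 13 without 1 library. With total reads the sign turned for Amotl2 in Direct RNA (0.053) and for Tead4 in the interaction (0.038). The cause of these shifts was not tested.

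The log2 fold change of some uncalled genes changed sign with 1 library left out. In Direct RNA the ranges were -1.14 to 0.37 for Tead1, -0.52 to 0.75 for Cyr61 and -1.08 to 0.60 for Amotl2, turning without Day4 replicate 2 (Tead1, Amotl2), Day4 replicate 1 (Cyr61) or Undiff replicate 2 (Amotl2). In cDNA they were -0.44 to 0.84 for Yap1, -0.15 to 1.06 for Cyr61 and -0.15 to 0.39 for Amotl2, turning without Undiff replicate 1 (all 3 genes) or Day4 replicate 1 (Cyr61, Amotl2). In the interaction they were -0.84 to 0.40 for Yap1, -0.032 to 1.65 for Tead1, -2.57 to 1.14 for Tead4, -0.54 to 0.78 for Ctgf, -0.52 to 1.06 for Cyr61 and -0.51 to 1.31 for Amotl2, and between kits -0.65 to 0.18 for Tead4. Where 1 group was left with a single library, that library was assumed to vary like the other group.

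Replicate numbers are not stated to pair samples. Deviations from the group means of same-numbered libraries, over 1395 genes, correlated at 0.21 between states in Direct RNA, 0.50 in cDNA, 0.12 between kits in Undiff and -0.41 at Day4. With a replicate block, 843 genes were called in Direct RNA and 1375 in cDNA, and 1 of the 10 genes, Tead2, stayed called in Direct RNA. Of the other pathway genes named, the block lost Nf2, Dchs1 (adjusted p = 0.839, DESeq2), Ajuba, Ywhag, Csnk1d, Arhgef17 and Rbms3 in Direct RNA and Stk4, Limd1, Vgll4, Igfbp3, Areg and Rbms3 (adjusted p = 0.796) in cDNA, against lowest values over all fits tried of 1.1e-05 for Dchs1 and 5.7e-08 for Rbms3. Ajuba and Stk4 were also lost with TMM factors or total reads, and Birc5 with total reads. A block with the Day4 numbers crossed between kits, chosen after seeing the data, gave 1 interaction call and 5081 calls between kits, with 5 of the 10 genes called (without Tead3).

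Of the values compared with alternatives, 78 of 98 in Direct RNA, 90 of 97 in cDNA, 119 of 134 in the interaction and 126 of 143 between kits kept their direction and their side of the threshold. These totals mix called and uncalled genes. In cDNA and in the interaction DESeq2 called 0 of the 10 genes, so a value kept there is an uncalled gene that stayed uncalled. The totals therefore do not measure how stable the calls are. With DESeq2 size factors in place of total reads, 11 rather than 13 pairs of gene and kit had states that did not overlap. The share over all genes was not computed, so these 2 counts are no result about the 10 genes. Genes with under 5 mean normalised counts (Tead3 in cDNA, Tead4 in Direct RNA, Ankrd1) are limited by depth.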

Other observations

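The pathway genes also differed between kits, with state as a covariate. Of the 20 upstream and junctional regulators, DESeq2 called 12 lower in cDNA than in Direct RNA and 2 higher, Amotl1 and Crb3, with a median log2 fold change of -2.10 over 19 genes at the count minimum, beside -0.02 over all genes. With total reads as size factors the calls of Amotl1 and Crb3 were lost, and that of Crb3 also without Direct RNA Undiff replicate 2, cDNA Undiff replicate 1 or cDNA Day4 replicate 2. Of the 12 kinase cascade genes 4 were lower (Sav1, Mob1a, Taok2 and Map4k4) and 1, Taok1, was higher. Taok2 lost its call without cDNA Undiff replicate 2. The 15 cofactors and antagonists gave 3 lower and 3 higher, and the 24 other Yap target genes 5 lower and 2 higher, where over all genes 26.6% were called lower and 24.7% higher. Among the last, the cell division gene Birc5 was higher in cDNA by 2.38 ± 0.22 (adjusted p = 2.4e-24, DESeq2) and Ccdc80 by 1.92 ± 0.48 (adjusted p = 3.1e-04), while Arhgef17 was lower by -2.12 ± 0.46 (adjusted p = 2.3e-05). The choice of these genes followed a look at their values. The call of Ccdc80 was lost without cDNA Day4 replicate 2, and those of Birc5 and Arhgef17 held without any 1 library.

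Vgll3, a cofactor that binds TEAD proteins, had 2 and 10 reads in Direct RNA Undiff and 0 and 0 at Day4, and in cDNA 1 and 5 against 0 and 0. The log2 fold changes of -2.61 (adjusted p = 0.296, DESeq2) and -2.21 (adjusted p = 0.486) did not pass, and the mean normalised counts of 2.18 and 1.42 were under the minimum for a call. Vgll3 too was picked with its values known. Lats2 stands in the lists of kinases and of Yap targets, and Ptpn14 in those of junctional regulators and of Yap targets.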
